A study of Mus musculus with 3 samples.

Results

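The genes described here are 5 members of the S100 family, S100a4, S100a6, S100a10, S100a11 and S100a13, and 2 galectins, Lgals1 and Lgals3. They were taken by symbol from the 32285 genes of the count tables, in which all 7 were found. The rule uses no measured value, but the genes were proposed with earlier results of these data known. Their mRNA was measured in mouse bone marrow by droplet single-cell RNA sequencing, with 1 library for each of 3 genotypes. Mx1Cre is a recombinase driven by the interferon-responsive Mx1 promoter and is therefore not limited to blood cells. The control library was labelled Rit1M90I/+ without Mx1Cre (wild type is also in its title), the Lztr1 knockout library Lztr1fl/fl with Mx1Cre, and the Rit1-M90I library Rit1M90I/+ with Mx1Cre. All 3 received 3 doses of the double-stranded RNA pIpC at 12 mg/kg, starting at 8 weeks of age, and marrow was taken 4 weeks later. Live cells negative for CD3, CD11b, Gr1, B220 and Ter119 were sorted, so most mature T, B, myeloid and red cells were outside the sample. Both mutant libraries carried Cre and the control did not, so the allele and the presence of Cre cannot be told apart, and both comparisons use the same control library.

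S100 proteins are small calcium-binding proteins that mostly pair up and take hold of partner proteins when calcium rises. They act on the cytoskeleton, on membranes and on annexins, and several are also released from cells. S100A10 is an exception in the family, since it holds its active shape without calcium and works in a complex with annexin A2. Galectins bind galactose-bearing sugar chains on glycoproteins. Galectin-1 (Lgals1) and galectin-3 (Lgals3) are made in the cytosol, leave the cell without passing through the secretory route, and cross-link receptors such as CD45 outside it. Unlike S100a8 and S100a9, which fill maturing neutrophils, the 7 genes are used by many kinds of blood cell. LZTR1 is the adaptor that marks the RAS-like protein RIT1 for breakdown, and the M90I change lies in RIT1.

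All 5 S100 genes lie on chromosome 3 of mm10, on the plus strand, and are protein coding. S100a13 (90514435 to 90524581), S100a4 (90603771 to 90606045) and S100a6 (90612882 to 90624181) stand within 109.746 kb of each other, and 6.837 kb separate the end of S100a4 from the start of S100a6. S100a11 (93520488 to 93526287) and S100a10 (93555080 to 93564643) form a second group on the same chromosome. Lgals1 lies on chromosome 15 (78926725 to 78930465) and Lgals3 on chromosome 14 (47367751 to 47386160). The GENCODE model Gm42674 overlaps S100a4 on the same strand and is not among the counted genes, so reads from that stretch may be counted in S100a4 or left out.

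Promoter sequences from RefSeq (GRCm38.p6) were found for 5 of the 7 members, all except S100a10 and Lgals1. The 3 shown here are the 250 bases before the annotated start, on the plus strand, for the neighbours S100a4 and S100a6, whose levels differed most between cell populations, and for S100a11, which was present in every population. Capitals mark matches to the AP-1 site TGANTCA, the GC box GGGCGG and the TATA box TATAAA, which were picked for display after the matches had been seen.
S100a4 promoter, chr3:90603520-90603769: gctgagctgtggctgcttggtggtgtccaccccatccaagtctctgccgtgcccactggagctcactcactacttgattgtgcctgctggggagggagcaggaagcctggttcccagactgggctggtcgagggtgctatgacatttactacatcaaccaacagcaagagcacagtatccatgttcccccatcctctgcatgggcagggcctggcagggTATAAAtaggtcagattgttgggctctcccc
S100a6 promoter, chr3:90612644-90612893: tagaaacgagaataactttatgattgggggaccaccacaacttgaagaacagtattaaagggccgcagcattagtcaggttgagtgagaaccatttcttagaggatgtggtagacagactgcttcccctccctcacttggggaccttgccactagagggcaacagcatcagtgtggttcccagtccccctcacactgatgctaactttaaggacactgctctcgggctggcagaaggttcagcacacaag
S100a11 promoter, chr3:93520246-93520495: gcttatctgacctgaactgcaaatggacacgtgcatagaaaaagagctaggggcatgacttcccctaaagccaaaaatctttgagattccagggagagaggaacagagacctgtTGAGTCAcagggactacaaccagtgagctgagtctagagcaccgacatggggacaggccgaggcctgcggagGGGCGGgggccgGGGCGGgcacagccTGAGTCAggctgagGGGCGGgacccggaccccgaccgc

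S100a11 held AP-1 matches beginning 136 and 38 bases before the start and GC boxes beginning 64, 52 and 24 bases before it, whereas S100a4 held a TATA box beginning 31 bases before the start and no GC box. None of these 3 motifs was found in the S100a6 window. In all, 12 motifs were searched on both strands of the 300-base windows (250 before to 50 after the start) of 32851 promoters, and overlapping matches were allowed. The AP-1 site was in 7.81% of all windows and in the S100a11 window. The GC box was in 35.7% of windows and in those of S100a11 and Lgals3, and the TATA box was in 13.6% and in S100a4. The PU.1 motif GAGGAAGT (3.20% of windows) matched S100a4, the GATA motif AGATAA (11.2%) matched S100a11, and the RUNX motif TGTGGT (16.8%) matched S100a6. The CACCC box (57.5%) matched S100a13, S100a4 and Lgals3, and CCAAT (37.4%) matched S100a6 and Lgals3. The E-box CANNTG (72.3%) matched S100a13, S100a6, S100a11 and Lgals3 and overlaps other motifs. The C/EBP motifs TTGCGCAA (0.183%) and TTGCNNAA (10.8%) and the interferon regulatory factor motif (3.44%) had no match in the 5 member windows. The GC content was 49.3% for S100a6, 55.3% for S100a4 and 61.7% for S100a11, beside a median of 52.7% over all windows. A match is a description of the letters only.

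The control, Lztr1 knockout and Rit1-M90I libraries kept 7262, 2339 and 9372 cells with median depths of 6855, 9922 and 6596 UMIs (distinct mRNA tags). Lztr1 mRNA was at 17.3, 6.30 and 15.2 CPM (UMIs of the gene per 1000000 UMIs of the same cells) in that order, lowest in the library labelled Lztr1 knockout. The tag count does not read the M90I change itself. Between 2 and 9 cell barcodes were shared by any pair of libraries. Cells were placed in populations by 8 marker genes each, with at least 3 present, which assigned 69.0%, 66.6% and 72.3% of cells, and 9 populations had at least 30 cells in every library. Among these, each population's own markers summed to between 3390 and 58385 CPM, and at most 2 of its 8 markers were at 0 in any library. In the monocyte population neutrophil progenitor markers summed to 3637, 3313 and 4619 CPM beside 3506, 3582 and 3613 CPM of monocyte markers, above them in the control and Rit1-M90I. Cells passing the T cell gate were present although CD3-bearing cells had been sorted out, and NK markers in them summed to 1568, 1304 and 1362 CPM. With 1 library per genotype, and with the number of mice in each not stated in the labels, there is no replicate and no test. The 95% intervals in parentheses cover counting error only, and each difference is between libraries.

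Among the 9 populations S100a4, which binds non-muscle myosin and is tied to cell movement, was a gene of monocytes and of some lymphoid cells. In innate lymphoid cells it stood at 690 CPM (572-824) for control, 453 (346-581) for the knockout library and 412 (352-480) for Rit1-M90I. In monocytes the 3 values were 341 (326-357), 395 (369-422) and 298 (287-310) CPM, and in T cells 214, 125 and 221 CPM. Innate lymphoid cells, monocytes, T cells and plasmacytoid dendritic cells came in that order in all 3 libraries, although in the knockout neither innate lymphoid cells and monocytes, nor T cells and plasmacytoid dendritic cells, differed beyond counting error. At the bottom were erythroid progenitors, at 0.707, 1.23 and 1.86 CPM. Monocytes held 53.1%, 52.6% and 52.0% of all S100a4 UMIs while holding 8.66%, 7.97% and 10.4% of all UMIs. Outside the 9 populations, conventional dendritic cells, only 15, 13 and 16 cells, held 0.635%, 3.21% and 1.87% of S100a4 UMIs. Their share of all UMIs was 0.111%, 0.278% and 0.112%. With every cell thinned to 2000 UMIs, 39.9%, 50.5% and 41.3% of monocytes had an S100a4 UMI, beside 0%, 0% and 0.489% of erythroid progenitors, whose median depth before thinning was 18588, 21103 and 16661 UMIs.

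S100a6 (calcyclin), which binds annexins and the Siah-1 partner CacyBP, was broader than S100a4 at the top and as scarce at the bottom. T cells stood at 956 CPM (903-1011) in the control, 518 (413-642) in the knockout and 1104 (1036-1177) in Rit1-M90I. Monocytes followed at 568, 529 and 430 CPM and plasmacytoid dendritic cells at 479, 305 and 565 CPM. The order of these 3 populations differed between libraries, and in the knockout monocytes and T cells did not differ beyond counting error. Neutrophil progenitors had 19.7 CPM (17.3-22.4), 12.6 (9.72-16.1) and 23.2 (21.4-25.2), far under the monocytes to which they are related. Erythroid progenitors were again lowest of the populations compared, at 1.86, 0.737 and 4.73 CPM. S100a8, a calprotectin subunit of neutrophils, was at 1.22, 1.60 and 6.45 CPM in the same erythroid progenitors, so low values of several genes were highest there in Rit1-M90I. The part of free RNA in these values was not tested. Conventional dendritic cells, only 15, 13 and 16 cells, reached 782, 1068 and 1459 CPM of S100a6.

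S100a10, the partner of annexin A2, was present in every population. Innate lymphoid cells had 833 CPM (703-980), 764 (624-927) and 724 (643-811) in control, knockout and Rit1-M90I. Monocytes stood at 710, 680 and 605 CPM and basophil and mast cells at 597, 639 and 667 CPM. Erythroid progenitors, which nearly lacked S100a4 and S100a6, still had 147 CPM (141-153), 120 (112-127) and 139 (133-145). Of the 9 populations, plasma cells were lowest in all 3 libraries, at 49.96, 67.2 and 76.2 CPM. S100a10 was the only member for which erythroid progenitors were not the lowest of the 9.

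S100a11, which binds annexin A1, had the highest level of the S100 members in neutrophil progenitors. Like S100a13, it was closer there to its monocyte level than S100a4, S100a6 and S100a10 were. Neutrophil progenitors had 397 CPM (386-408), 376 (359-393) and 350 (343-357) of S100a11, next to 380, 371 and 318 CPM in monocytes. Among the populations compared, basophil and mast cells (471, 443 and 470 CPM) and plasmacytoid dendritic cells (484, 384 and 464 CPM) were highest. These neighbours did not differ beyond counting error in any library. Plasma cells (45.2, 35.7 and 48.2 CPM) and erythroid progenitors (35.2, 31.0 and 37.5 CPM) were lowest of those compared. Outside these populations, the few conventional dendritic cells held 0.379%, 1.30% and 0.430% of S100a11 UMIs. Their share of all UMIs was 0.111%, 0.278% and 0.112%. Neutrophil progenitors held 33.6%, 33.4% and 43.3% of all S100a11 UMIs while holding 19.8%, 18.4% and 31.0% of all UMIs. They made up 13.4%, 12.5% and 22.7% of cells.

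S100a13, which takes part in the release of fibroblast growth factor 1 and interleukin 1 alpha, varied least of the 7. T cells had 250 CPM (223-279) in the control, 162 (106-238) in the knockout and 204 (175-237) in Rit1-M90I. Basophil and mast cells had 179, 186 and 194 CPM, monocytes 143, 119 and 134 CPM and neutrophil progenitors 111, 102 and 113 CPM. Erythroid progenitors were at 34.4, 28.1 and 32.1 CPM. The log2 ratio of the highest to the lowest population, with 10 CPM added to both, was 2.55, 2.36 and 2.35 for S100a13 and 6.35, 5.65 and 6.24 for S100a6.

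Lgals1, the dimeric galectin that curbs T cell responses, was led by plasmacytoid dendritic cells and monocytes. Plasmacytoid dendritic cells had 2787 CPM (2656-2922), 2427 (2258-2605) and 2486 (2386-2590), and monocytes 2579 (2536-2622), 2389 (2325-2455) and 2100 (2069-2131). After thinning, 96.7%, 96.9% and 96.7% of monocytes had an Lgals1 UMI, beside 13.2%, 8.74% and 14.2% of erythroid progenitors. Basophil and mast cells (887, 1010 and 867 CPM) and neutrophil progenitors (749, 737 and 727 CPM) were intermediate in all 3 libraries. Erythroid progenitors had 50.3, 44.4 and 53.1 CPM.

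Lgals3, the chimera-type galectin made by macrophages and mast cells, was concentrated in 2 of the 9 populations. Basophil and mast cells had 394 CPM (374-416), 495 (454-538) and 471 (451-491), above monocytes at 340 (325-356), 315 (292-339) and 285 (274-297) in every library. Plasmacytoid dendritic cells came next at 90.2, 53.9 and 170 CPM, and lymphoid progenitors were at 0.977, 5.39 and 3.45 CPM. Basophil and mast cells held 31.7%, 32.6% and 33.5% of Lgals3 UMIs and monocytes 42.5%, 41.8% and 37.0%. The few conventional dendritic cells stood higher, at 1100, 1238 and 1010 CPM.

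**Figure D1:**
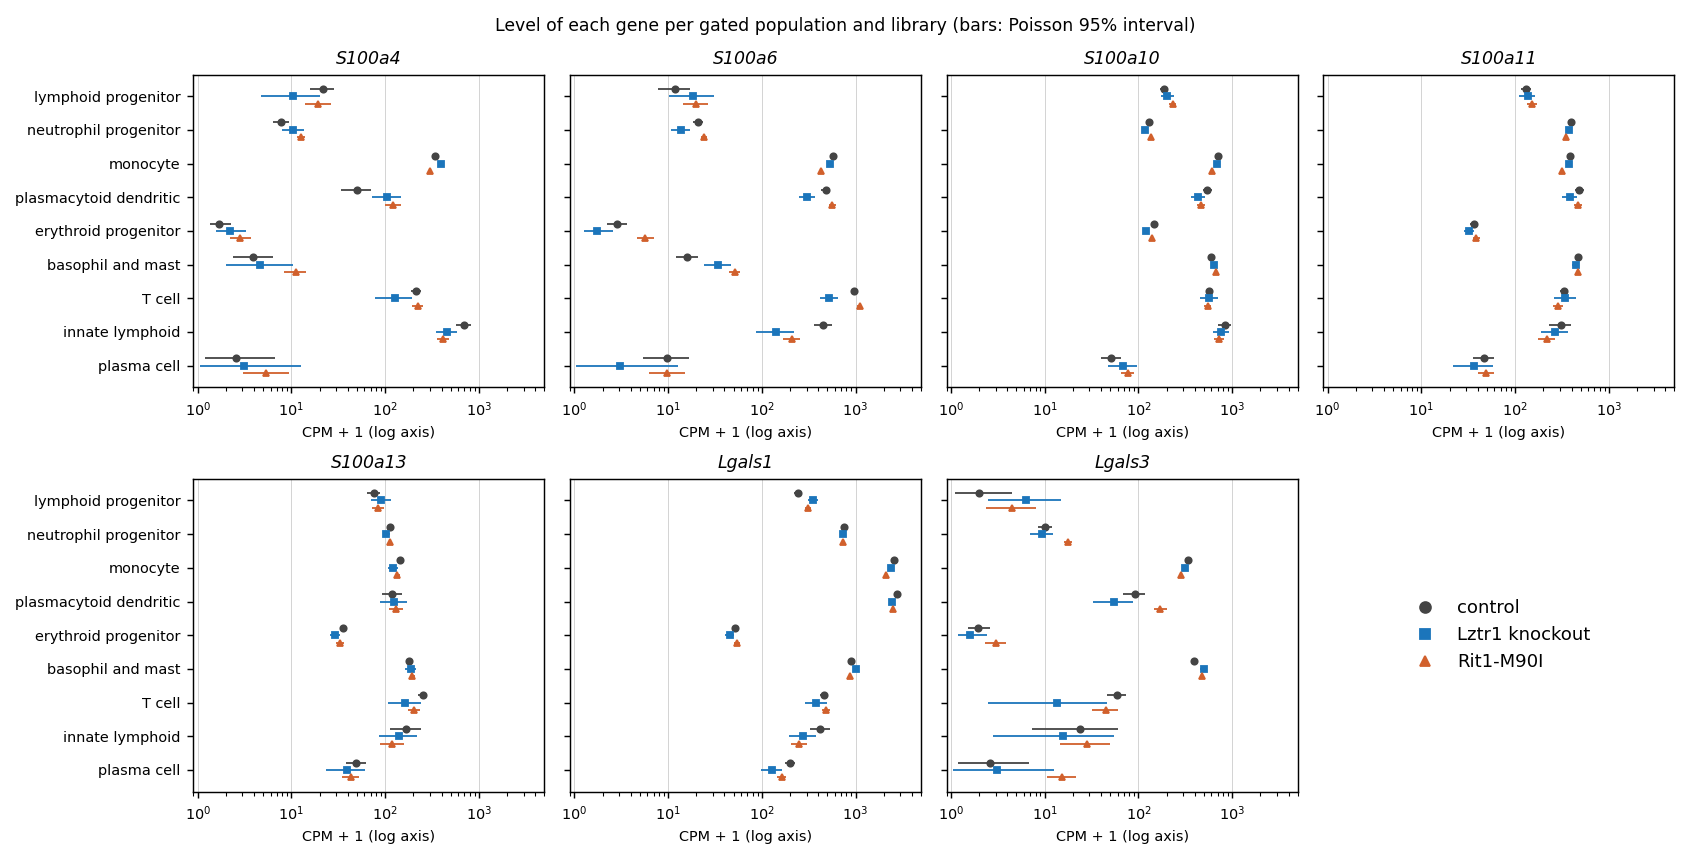
Level of each gene (CPM plus 1, log axis) in the 9 populations, one panel per gene and one symbol per library; bars are exact 95% counting intervals. S100a4, S100a6 and Lgals3 run from a few CPM or less in erythroid progenitors to their highest levels in lymphoid, monocytic or basophil and mast cells, while S100a13 stays between 28.1 and 250 CPM.

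Across the 9 populations, with log2 levels averaged over the libraries, the SD of S100a6 was higher than that of 99.5% of 4681 genes reaching 50 CPM in at least 1 population. S100a4 stood at 99.1%, Lgals3 at 98.4%, Lgals1 at 97.2%, S100a11 at 91.2%, S100a10 at 89.7% and S100a13 at 64.4%. By Pearson's r the closest pairs were S100a11 with S100a13 (0.93) and S100a4 with S100a6 (0.90), and the least alike were S100a4 and Lgals3 (0.35). By rank the order differed, with S100a11 and Lgals1 closest (Spearman's rho 0.92), S100a11 and S100a13 at 0.63, and S100a4 and S100a11 least alike (0.28). These values are over 9 populations that share libraries and depth, and describe only how alike the patterns were. Among 4580 other genes, S100a6 was most like Ahnak, a giant scaffold protein (r = 0.97), and S100a10 was most like Plec, which encodes plectin (r = 0.97). S100a11 was most like Arpc1b, an actin-branching subunit (r = 0.96), S100a13 like the actin binder Tmsb4x (r = 0.99), and Lgals1 like Vim, which encodes vimentin (r = 0.96). S100a4 was most like Lbh (r = 0.87) and Lgals3 like Plp2 (r = 0.91).

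Within populations, dividing cells differed from resting ones for several members. Cells were called cycling with at least 3 of 10 mitotic markers after thinning to 2000 UMIs, and non-cycling with 0. Cycling erythroid progenitors had 96.5, 75.01 and 84.0 CPM of S100a10 in the control, knockout and Rit1-M90I, and non-cycling ones 339, 299 and 342 CPM. The ratios were 0.285, 0.251 and 0.245. For Lgals1 the ratios there were 0.270, 0.225 and 0.228, for S100a11 0.454, 0.436 and 0.399, and for S100a13 0.528, 0.615 and 0.669. All 4 genes were thus lower in cycling erythroid progenitors in all 3 libraries, with intervals that excluded 1. The cycling cells there were deeper, with median UMIs of 21482, 23766 and 20102 against 8916, 13328 and 8545, and the part of depth or maturity in these ratios was not tested.

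Lgals3 was on the same side in basophil and mast cells, at 108, 134 and 233 CPM in cycling and 385, 673 and 454 CPM in non-cycling cells (ratios 0.281, 0.199 and 0.514). S100a11 ratios there were 0.631, 0.473 and 0.860 and S100a10 ratios 0.713, 0.530 and 0.797. Lgals1 was on the other side or near 1, at 1.08, 1.08 and 1.15. In neutrophil progenitors S100a11 was lower in cycling cells (0.780, 0.776 and 0.843). S100a4, at 13.4, 17.6 and 15.7 CPM in cycling and 4.91, 4.14 and 7.65 CPM in non-cycling cells, was higher. So was S100a6 (ratios 1.46, 3.41 and 1.84), and both genes were scarce. The cycling cells there were deeper, with median UMIs of 14416, 21043 and 15136 against 11535, 15375 and 12923. The part of depth in these ratios was not tested. In monocytes the 7 genes had ratios between 0.642 and 1.31, with no member on one side of 1 beyond its interval in all 3 libraries. Lgals1 in lymphoid progenitors was at 384 CPM in cycling and 157 CPM in non-cycling control cells (ratio 2.45), and at 424 and 231 CPM in Rit1-M90I (1.83). The knockout had too few cycling lymphoid progenitors.

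**Figure D2:**
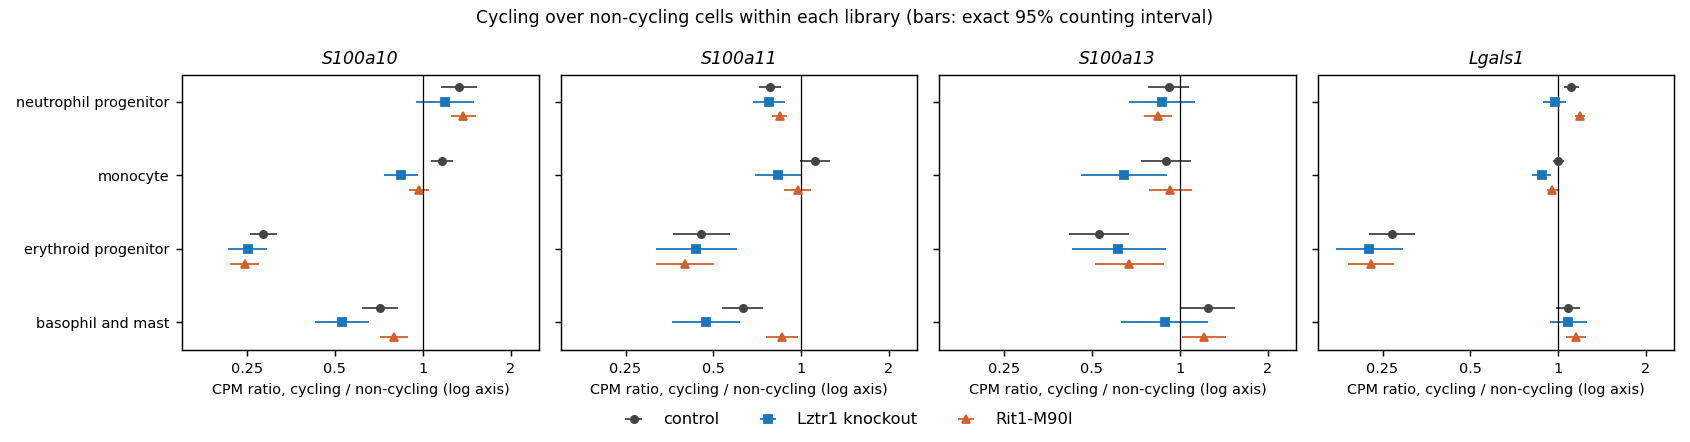
Ratio of CPM in cycling over non-cycling cells (log axis, line at 1) for S100a10, S100a11, S100a13 and Lgals1 in 4 populations and 3 libraries; bars are exact 95% counting intervals. In erythroid progenitors every symbol lies left of 1, from 0.225 to 0.669, whereas in monocytes they run from 0.642 to 1.16.

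Over all kept cells the genotypes differed little. S100a6 was at 123 CPM (121-126) for control, 85.2 (81.8-88.8) for the knockout and 110 (108-112) for Rit1-M90I, so it was lower in both mutant libraries. Its log2 ratio to control, with 10 CPM added to each value as in all log2 ratios here, was -0.48 in the knockout and -0.15 in Rit1-M90I. Lgals3 was at 69.3, 60.0 and 80.1 CPM (log2 -0.18 and 0.18) and S100a13 at 96.2, 81.1 and 101 CPM (-0.22 and 0.06). S100a11 was at 234, 207 and 250 CPM (-0.17 and 0.10) and S100a10 at 307, 276 and 293 CPM (-0.15 and -0.07). Lgals1 was at 772, 723 and 799 CPM (-0.09 and 0.05), and S100a4, at 55.6, 59.8 and 59.5 CPM, was the only member above control in both (0.09 and 0.08). No member reached a 1.5-fold difference, 0 of 7 in either library, where 0.523% of 5931 genes did so in the knockout and 0.545% of 5876 in Rit1-M90I. The median of the 7 was -0.17 and 0.06, beside 0.02 and -0.05 over all genes of at least 20 CPM.

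A level over all cells also moves with the mix of populations. T cells made up 6.86%, 2.01% and 2.97% of cells and held 2.05%, 0.581% and 1.08% of all UMIs. They held 15.9%, 3.53% and 10.9% of S100a6 UMIs. With every population given its control share of UMIs, the S100a6 log2 ratio was -0.35 in the knockout and -0.10 in Rit1-M90I. For S100a11 in Rit1-M90I the sign turned from 0.10 to -0.08, for Lgals1 from 0.05 to -0.09 and for S100a13 from 0.06 to -0.02. Neutrophil progenitors and monocytes held more of all UMIs in that library than in control, and erythroid progenitors held less. In control, neutrophil progenitors held 19.2% of Lgals1 UMIs beside 19.8% of all UMIs. The part of each population in these turns was not tested. Lgals3 went from -0.18 to -0.03 in the knockout and from 0.18 to 0.10 in Rit1-M90I.

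Monocytes of the Rit1-M90I library had all 7 members below control. Lgals1 was at 2100 against 2579 CPM (ratio 0.814, 0.796-0.833), S100a6 at 430 against 568 (0.758, 0.722-0.796) and S100a4 at 298 against 341 (0.873, 0.822-0.928). The intervals of 6 members lay below 1, and S100a13 at 0.942 (0.859-1.03) was the other. The median log2 ratio was -0.25 beside -0.05 over all genes tested in monocytes, and none of the 7 reached 1.5-fold (0.509% of genes did). Neutrophil progenitor markers summed to 3637 CPM in control and 4619 CPM in Rit1-M90I monocytes, and their part in the difference was not tested. Knockout monocytes had 6 of 7 members below control, 3 of them with intervals below 1, such as Lgals1 (0.926, 0.897-0.956) and S100a13 (0.835, 0.723-0.962). S100a4 was the exception, above control at 395 CPM (ratio 1.16, 1.06-1.25). The median log2 ratio of the 7 was -0.10 beside 0.02 over all genes tested, and 0 of 7 reached 1.5-fold (0.414% of genes). The shares of all genes below control, or with an interval below 1, were not counted here. The member counts by sign or interval are therefore a description only. The 2 mutant libraries were not tested against each other.

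In basophil and mast cells S100a6 was scarce and above control in both mutant libraries. It was at 14.997 CPM (11.2-19.7) in the control from 52 UMIs, 33.0 (23.1-45.7) in the knockout from 36 UMIs and 50.3 (44.0-57.3) in Rit1-M90I from 229 UMIs. The ratio was 2.20 (1.40-3.43) in the knockout and 3.35 (2.47-4.62) in Rit1-M90I, with log2 ratios of 0.78 and 1.27. Of all genes, 0.593% and 0.322% were higher by at least 1.5-fold. S100a6 was under 20 CPM in the control and entered the comparison only through the mutant libraries (mean of both 24.0 and 32.6 CPM), so its call is not read against those shares. After thinning, 2.84%, 4.58% and 5.50% of these cells had an S100a6 UMI, against 0.826%, 0% and 0.244% of erythroid progenitors, a type nearly without the gene. Few cells carried it. The 5 cells richest in S100a6 held 30.8%, 66.7% and 31.0% of its UMIs, and without them the level was 10.4, 11.2 and 34.9 CPM. The knockout was then close to control (log2 0.05), while Rit1-M90I was above it, and the Rit1-M90I log2 ratio lay between 1.14 and 1.68 under the alternatives run. However, 5 cells are a larger part of the 268 knockout cells than of the 1051 control and 1390 Rit1-M90I cells. The trimmed levels are therefore not like for like.

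Markers of other cells were measured in the same basophil and mast cells. Monocyte markers summed to 451, 442 and 481 CPM and T cell markers to 15.6, 18.3 and 14.9 CPM, close to level across libraries. Plasma cell markers stood at 70.9, 77.9 and 266 CPM and S100a8 at 9.81, 13.7 and 25.3 CPM, both highest in Rit1-M90I, and their part in the S100a6 value was not tested. S100a4 in these cells was at 2.88, 3.66 and 10.1 CPM, too scarce for a comparison. The basophil and mast cell genes S100a10 (ratios 1.07 and 1.12) and Lgals3 (1.25 and 1.19) stayed within 1.5-fold.

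**Figure D3:**
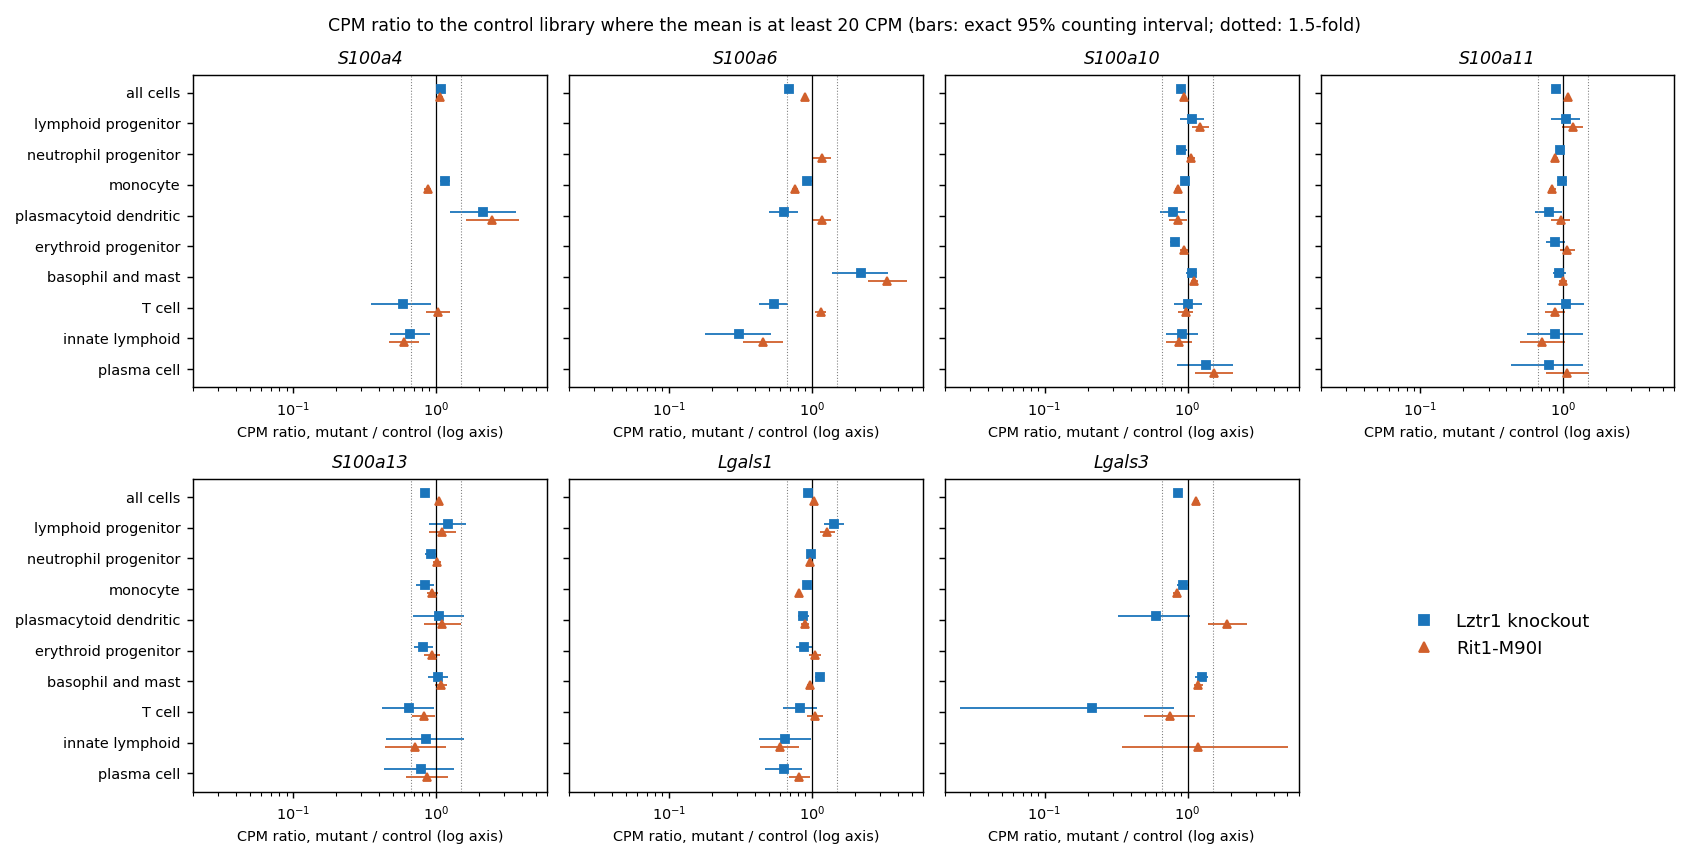
Ratio of mutant to control CPM (log axis) for each gene in all cells and the 9 populations where the mean of both libraries was at least 20 CPM; bars are exact 95% counting intervals and dotted lines mark 1.5-fold. Most symbols lie between the dotted lines, and S100a6 in basophil and mast cells stands to the right at 2.20 and 3.35.

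Plasmacytoid dendritic cells, 118, 51 and 178 of them, had more S100a4 in both mutant libraries. The levels were 49.2 CPM (33.2-70.2), 105 (72.1-147) and 121 (99.4-145), with ratios of 2.13 (1.26-3.61) and 2.45 (1.63-3.8). It was the only member at least 1.5-fold higher in the knockout, where 7.21% of genes were, and 1 of 2 in Rit1-M90I, where 2.85% were. The other was Lgals3, at 90.2, 53.9 and 170 CPM (ratio 1.89, 1.38-2.61 in Rit1-M90I). S100a6 and Lgals3 were at least 1.5-fold lower in the knockout, as were 6.02% of genes there, and the interval of Lgals3 included 1 (0.598, 0.325-1.05). Without the 5 richest cells S100a4 was at 27.4, 53.3 and 88.0 CPM and Lgals3 at 47.7, 3.45 and 114 CPM, where 5 cells are a larger part of the 51 knockout cells. Neutrophil progenitor markers in these cells summed to 154, 257 and 455 CPM, monocyte markers to 776, 631 and 906 CPM and conventional dendritic markers to 130, 155 and 145 CPM. Their part in the S100a4 and Lgals3 values was not tested. These calls depended on the gate: with cells gated after thinning, the log2 ratio of S100a4 was 0.24 in the knockout and 0.43 in Rit1-M90I and that of Lgals3 in Rit1-M90I 0.08. With a lead of 2 markers the knockout log2 ratios were -0.03 for S100a6 and -0.23 for Lgals3.

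**Figure D4:**
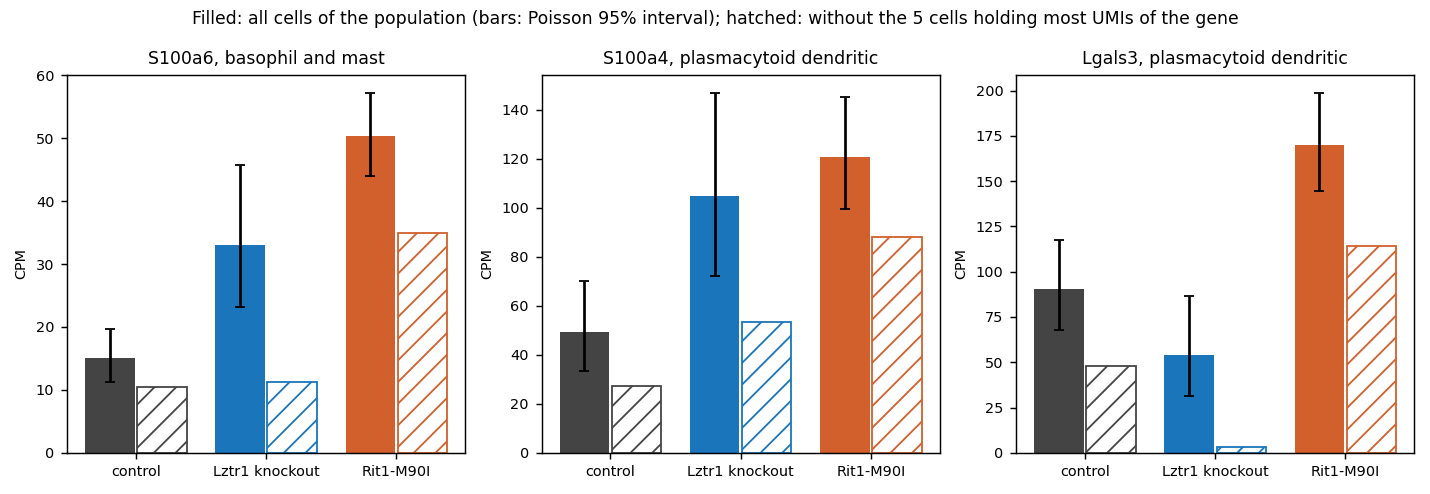
CPM of S100a6 in basophil and mast cells and of S100a4 and Lgals3 in plasmacytoid dendritic cells, by library, with all cells (filled bars, exact 95% counting intervals) and without the 5 cells holding most UMIs of the gene (hatched bars). For S100a6 the knockout bar drops from 33.0 to 11.2 CPM, close to the control, and the Rit1-M90I bar from 50.3 to 34.9 CPM. In basophil and mast cells, 5 cells are a larger part of the 268 knockout cells than of the 1051 control and 1390 Rit1-M90I cells.

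The lymphoid populations gave lower values in small samples of cells. In the 47 T cells of the knockout S100a6, S100a4 and S100a13 were at least 1.5-fold lower, as were 10.8% of genes. S100a6 was at 518 against 956 CPM (ratio 0.542, 0.428-0.677), S100a4 at 125 against 214 and S100a13 at 162 against 250 CPM. Lgals3, from 2 UMIs, was at 12.5 against 58.1 CPM and entered the comparison only through the control, so it is not counted with them. With a lead of 2 markers S100a6 (-0.57) and S100a4 (-0.37) were within 1.5-fold, and with cells gated after thinning S100a13 was (-0.27). No member differed by 1.5-fold in the 278 Rit1-M90I T cells (3.49% of genes). In innate lymphoid cells, 57, 40 and 124 of them, S100a4, S100a6 and Lgals1 were at least 1.5-fold lower in both mutant libraries, as were 20% of genes in the knockout and 13% in Rit1-M90I. S100a6 was at 454, 141 and 207 CPM and Lgals1 at 419, 274 and 249 CPM. With 36.4% and 24.4% of genes beyond 1.5-fold in either direction there, such a difference was common at this depth. With at least 4 markers per cell only S100a6 in the knockout was still 1.5-fold lower there (log2 -0.69), and S100a4 and Lgals1 in the knockout and Lgals1 in Rit1-M90I turned to the other side of control (0.74, 0.11 and 0.17). In plasma cells Lgals1, at 197, 126 and 161 CPM, was 1.5-fold lower in the knockout, as were 3.89% of genes, though not with cells gated after thinning (log2 -0.42). S100a10 at 49.96 and 76.2 CPM had a ratio of 1.53 but a log2 ratio of 0.52, within the 1.5-fold limit on that scale. Of the 4 members of at least 20 CPM there, 0 were beyond it in Rit1-M90I (2.9% of genes).

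Lymphoid, neutrophil and erythroid progenitors had no member of at least 20 CPM beyond 1.5-fold in either mutant library. Of all genes there, 3.17%, 0.528% and 0.294% were in the knockout and 1.62%, 0.408% and 0.368% in Rit1-M90I. Lgals1 in lymphoid progenitors came nearest, at 243 CPM (222-265), 348 (307-393) and 312 (288-337), log2 0.50 and 0.35. Below 20 CPM, where no call was made, S100a4 was beyond the same fold in knockout lymphoid progenitors (-0.65) and Rit1-M90I basophil and mast cells (0.64), S100a6 in knockout plasma cells (-0.63) and Lgals3 in Rit1-M90I plasma cells (1.07).

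Related genes were read from lists of the families and their partners. Over all cells, 0.523% of genes in the knockout and 0.545% in Rit1-M90I were beyond 1.5-fold. A count of 0 in a short list is therefore no result about that list. Of 13 other S100 family entries, one of them the S100 binding protein S100pbp, 2 reached 20 CPM over all cells in each comparison, S100a1 at 41.2, 38.2 and 47.9 CPM and S100a8 at 49.6, 43.9 and 138 CPM. S100a8 in Rit1-M90I was the 1 called higher, with a log2 ratio of 1.31. Neutrophil progenitors made up 13.4% of control and 22.7% of Rit1-M90I cells, and the part of this mix in the S100a8 value was not tested. Of 7 galectin list entries 2 reached 20 CPM and none was beyond 1.5-fold. Lgals9, the tandem-repeat galectin, was at 151, 173 and 125 CPM (0.19 and -0.26), and Lgals3bp, a secreted galectin-3 ligand, at 59.6, 56.5 and 45.6 CPM (-0.07 and -0.33). Of 12 S100 binding partners 10 reached 20 CPM and none was beyond 1.5-fold, with Anxa1 lowest in the knockout (-0.26) and highest in Rit1-M90I (0.27). Anxa2, the S100A10 partner, was at 92.2, 78.6 and 109 CPM (-0.21 and 0.22). Of 12 glycoproteins and sugar-chain enzymes that carry or build galectin ligands 10 reached 20 CPM, again with none beyond 1.5-fold. Ptprc, which encodes CD45, was lowest of these in both, at 168, 130 and 146 CPM (-0.35 and -0.20). Mgat5, which builds branched N-glycans, was highest in Rit1-M90I at 42.5 and 50.4 CPM (0.20), and B4galt1 was highest in the knockout at 43.2 and 47.1 CPM (0.10).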

How the data were processed

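The files deposited by the authors hold UMI counts with no normalization, one per gene and barcode, written by Cell Ranger 6.1.1 per the file headers. Per the submitters' processing notes the build was mm10 and Seurat 4.1.0 was used, while neither the annotation release nor the cell calling is given there. The deposited tables held 8476, 3014 and 11573 barcodes with 67541728, 30398349 and 88560148 UMIs (control, Lztr1 knockout, Rit1-M90I). Barcodes with at least 1000 UMIs and 500 genes and at most 10% mitochondrial UMIs were kept, and scrublet (scanpy 1.11.5, per library, expected rate 6%) removed 261, 83 and 445 doublets. A marker was positive in a cell when its log level per 10000 UMIs was at least 50% of the level that 1 in 1000 cells exceeded. A cell joined the population, of 19, with most positive markers of 8 and at least 3, and ties stayed ungated.

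UMIs were summed per population and library to CPM, with exact Poisson 95% intervals. Ratios carry exact conditional 95% intervals, which cover counting error only and no spread between mice or cells. A gene was called at 1.5-fold on log2(CPM + 10) where the mean of the 2 libraries was at least 20 CPM, a scale that understates ratios of scarce genes. Shares of cells used cells thinned to 2000 UMIs. The calculations were checked on simulated data. Members, lists and populations were chosen with earlier results of these data known, and the population sizes and levels were looked at once without changing the gate. Named genes were all members, the 3 genes most alike to each (the first is given), and the 2 highest and 2 lowest of each related list over all cells at 20 CPM or more, given in part. The alternatives were 9 settings fixed early and 1, without the 5 cells richest in a gene, chosen after seeing the data. Protein identity was not analysed here.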

Additional observations from a re-analysis of the deposited data

Results flagged for a closer look

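S100a4 and S100a6 are listed here because their difference from control went one way in some populations and the other way in others. For S100a6 this held only with basophil and mast cells counted. A population was listed where the gene had a mean of at least 20 CPM, was beyond 1.5-fold and had a ratio interval without 1. There was 1 library per genotype, so the difference between populations was not tested. In the Lztr1 knockout the S100a4 log2 ratio was 0.95 in plasmacytoid dendritic cells, -0.73 in T cells and -0.60 in innate lymphoid cells. In Rit1-M90I it was 1.14 in plasmacytoid dendritic cells and -0.73 in innate lymphoid cells. The S100a6 log2 ratio in the Lztr1 knockout was 0.78 in basophil and mast cells, -0.64 in plasmacytoid dendritic cells, -0.87 in T cells and -1.62 in innate lymphoid cells. In Rit1-M90I it was 1.27 in basophil and mast cells and -1.09 in innate lymphoid cells. S100a6 was at 14.997 CPM in control basophil and mast cells, so it met the 20 CPM mean there only through the mutant libraries. Those 2 basophil and mast cell values are a description, and the other listed S100a6 values were all below control.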

How the results depend on the processing

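No member was beyond 1.5-fold over all cells under the alternatives run. The S100a6 log2 ratio over all cells ranged from -0.53 to -0.44 in the Lztr1 knockout and from -0.16 to -0.11 in Rit1-M90I. In basophil and mast cells it ranged from 0.05 to 1.09 and from 1.14 to 1.68, and in plasmacytoid dendritic cells S100a4 ranged from 0.24 to 1.22 and from 0.43 to 1.45. With at least 4 positive markers the innate lymphoid log2 ratio turned to 0.74 for S100a4 and 0.11 for Lgals1 in the knockout and to 0.17 for Lgals1 in Rit1-M90I. With cells gated after thinning, S100a4 in knockout lymphoid progenitors turned to 0.023. Without the 5 richest cells, Lgals1 in Rit1-M90I innate lymphoid cells turned to 0.00070, and S100a4 and S100a6 in knockout T cells went to -1.51 and -1.53. The cause of these changes was not tested. Log2 ratios at control shares moved beyond their counting interval with at least 4 markers, to 0.12 for S100a4, -0.045 for S100a6, -0.0020 for S100a10, -0.0056 for Lgals1 and 0.17 for Lgals3 in Rit1-M90I and to -0.012 for Lgals1 in the knockout. With a lead of 2 markers Lgals1 went to -0.067 and -0.052, and with the thinned gate to -0.087 in the knockout. Lgals3 over all knockout cells went to -0.056 with the thinned gate and to -0.085 with the stricter cell filter, under which Lgals1 in Rit1-M90I went to -0.072 at control shares. Without mitochondrial, ribosomal, hemoglobin and immunoglobulin genes in the total, Lgals1 in Rit1-M90I was 0.070 over all cells and -0.069 at control shares. No paired analysis was possible because each genotype has 1 library and the labels give no replicate numbers. The protein comparison was not run. The precision is limited by cell numbers in the knockout, with 47 T cells, 40 innate lymphoid cells and 37 plasma cells.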
